A study of Saccharomyces cerevisiae with 9 samples.

Results

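Ind_B is the label of an industrial antifoam agent whose composition is not given in the sources used here. Its cultures were compared with control fermentations across all genes, using the libraries Ind_B1, Ind_B2 and Ind_B3 against control1, control12 and control13. These are 6 of the 9 libraries of the series, and 6137 of its 6357 counted rows passed the filter on low counts and were tested. The cells were *Saccharomyces cerevisiae* CAT-1, a strain of the Brazilian fuel-ethanol industry. All groups, control included, went through 5 recycled fed-batch fermentations on sugar cane molasses with an acid treatment between them. RNA was taken at hour 4 of the fifth fermentation. The labels give the treatment as anti-foam for the Ind_B cultures and as control for the others, and no dose. They do not say whether the 3 libraries of a group came from separate cultures. The p-values thus measure only the spread between libraries within groups, which may be technical. That spread was estimated over all 9 libraries, including the 3 of Ind_Z, another antifoam.

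Antifoams are surface-active mixtures, added to fermentors to collapse the foam that carbon dioxide raises in molasses, and yeast meets them first at its wall and plasma membrane. That membrane owes its stiffness to ergosterol, made from acetyl-CoA through mevalonate and squalene, and its fluidity to the unsaturated fatty acids that the desaturase Ole1 supplies. The transcription factors Upc2 and Ecm22 sense sterols and switch the ergosterol genes on when sterols run low. Outside the membrane lies a wall of glucan, chitin and mannoproteins.

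With Ind_B, genes of ergosterol synthesis, fatty acid synthesis, the cell wall and glycogen were lower than in control, and genes for the uptake of sulfur sources and single genes of mating and early meiosis were higher. Few of them passed the test with all libraries. With all libraries, 9 of 6137 genes were called (0.147%) at a Benjamini-Hochberg adjusted p under 0.05 in edgeR's quasi-likelihood test, 2 of them higher (0.0326%) and 7 lower (0.114%) in Ind_B. Without control13, 45 of 6178 genes were called (0.728%), 9 higher (0.146%) and 36 lower (0.583%), and the 9 genes called with all libraries were among them. For each of the 45 genes all 3 Ind_B libraries lay on one side of control1 and control12, and control13 lay on the controls' side too. The calls came from those same libraries, so the separation from control1 and control12 comes with that choice. Over all genes tested, Ind_B lay above both in 15.6% and below both in 12.3%. It lay above all 3 controls in 12.0% and below them in 9.21%. Of the 36 lower genes, 34 had their highest control value in control13, and the share of all genes with that order was not counted. These counts changed with each library: leaving out control12 gave 332 calls in edgeR, with all 45 genes among them, and leaving out control1 gave 0 (1233 at an unadjusted p under 0.05), as did leaving out Ind_B1, Ind_B2 or Ind_B3 (816, 818 and 1067). DESeq2 called 301 genes with all libraries, 42 of the 45 among them. The others of the 45, PCL1, CLN1 and YOX1, were given no p-value by DESeq2, so it did not test them. SIM1, MCD1 and RNR1, also far higher in control13 than in the other controls, had none either. Where no tool is named below, a gene called or not called refers to edgeR. An edgeR fit on the 6 libraries of Ind_B and control alone, without the spread of Ind_Z, called 1 gene (746 at an unadjusted p under 0.05). An unadjusted p under 0.05, used below beside counts of 0 calls, was reached with all libraries by 9.14% of genes tested in the higher direction and 9.92% in the lower, and without control13 by 7.82% and 5.57%.

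The libraries held 13437215, 9492360 and 17943055 counts for Ind_B1, Ind_B2 and Ind_B3, against 18245935, 12296693 and 6585639 for control1, control12 and control13. Levels are given in CPM, counts divided by the library's total and scaled by TMM factors, per 1000000, and changes are log2 fold changes of Ind_B over control ± SE. The library control13 stood apart: 440 tested genes were more than 2-fold above the mean of control1 and control12 in it and 196 were more than 2-fold below it. Between control1 and control12, 14 genes were more than 2-fold higher in control1 and 40 were more than 2-fold lower in it. Among the Ind_B libraries, 41 genes in Ind_B2 were more than 2-fold above the mean of Ind_B1 and Ind_B3, and 98 were more than 2-fold below it. Over the tested genes, the Spearman correlation of control13 was 0.956 with control1 and 0.954 with control12. With the Ind_Z libraries it was 0.967, 0.967 and 0.965. Ind_B3 had 0.993 with control12, 0.988 with Ind_B1 and 0.976 with Ind_B2. Ind_B1 had 0.988 with control12 and 0.983 with Ind_B2, and Ind_B2 had 0.980 with control12. By this measure the Ind_B libraries were not set apart from control12. RNA came from whole cultures, so fewer cells expressing a gene and less RNA of it per cell cannot be told apart.

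**Figure D1:**
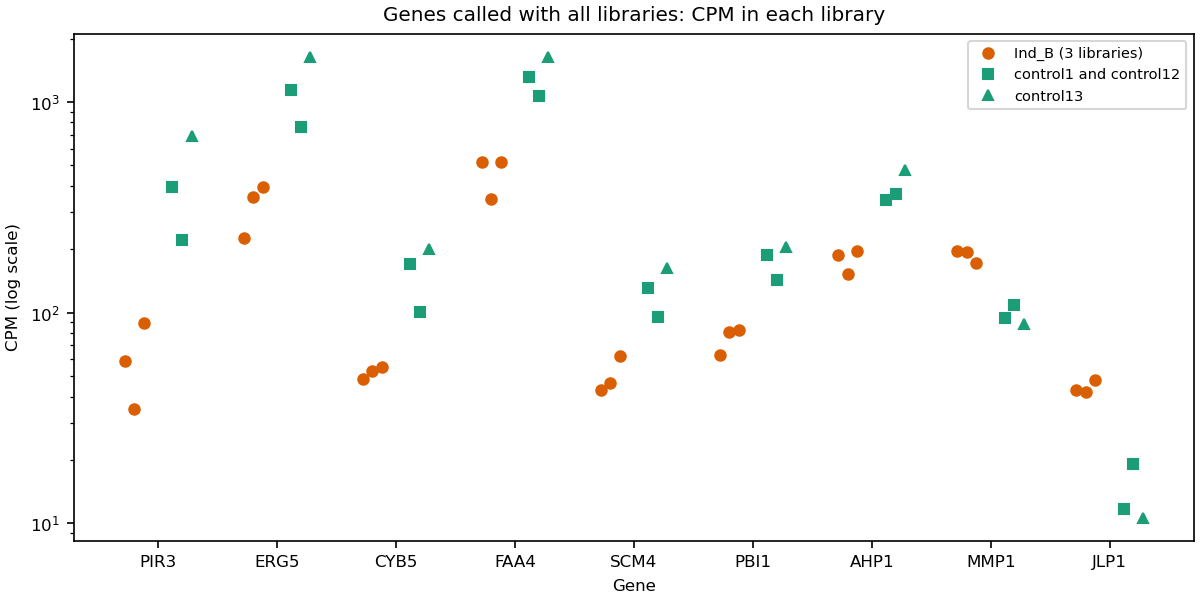
CPM on a log axis of the 9 genes called with all libraries, 1 point per library, with the 3 Ind_B libraries to the left of the 3 control libraries for each gene (control13 as triangles). In the 7 genes at the left every Ind_B point lies below every control point, and in MMP1 and JLP1 every Ind_B point lies above.

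Ergosterol genes were lower along most of the pathway. Of the 26 genes tested, from acetoacetyl-CoA thiolase to the last reductase, 26 had a negative change with all libraries. In 22 of them all 3 Ind_B libraries were below all 3 control libraries, against 9.21% of all genes tested. Without control13, 1 gene of the last steps was higher. Their median change was −0.98, and −0.70 without control13, while the median of all genes was 0.014 and −0.004. The called genes were 2 of the 26 with all libraries and 8 without control13.

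In the first stretch, acetyl-CoA to squalene, 10 of 10 genes were lower with a median of −0.849 (−0.607 without control13). MVD1, which makes isopentenyl pyrophosphate by the last step of the mevalonate pathway, had 79.8, 83.3 and 102 CPM in Ind_B1, Ind_B2 and Ind_B3, against 235, 154 and 297 CPM in control1, control12 and control13. The groups did not overlap, and without control13 MVD1 fell by 1.15 ± 0.18 (adjusted p = 0.0297, edgeR). HMG1, the main HMG-CoA reductase and the controlling step of the pathway, had 157, 167 and 223 CPM in the Ind_B libraries, against 497, 285 and 525 in the controls. ERG13, the HMG-CoA synthase gene, had 235, 223 and 337 CPM in Ind_B and 611, 408 and 682 in control. Both also had no overlap between groups, and neither was called in either fit (HMG1 −1.25 ± 0.24, adjusted p = 0.0696, and ERG13 −1.10 ± 0.23, adjusted p = 0.0781, edgeR with all libraries). HMG2, the second reductase isozyme, was close to 0, with a change of −0.09 ± 0.10.

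Between squalene and zymosterol 10 of 10 genes were lower as well (median −0.869, and −0.625 without control13), and ERG11 and ERG25 were called without control13. ERG11, the lanosterol 14-alpha-demethylase and the target of azole antifungals, had 737, 1042 and 1280.4 CPM in the Ind_B libraries, against 2778, 1897 and 3401 in the controls. Without control13 its change was −1.21 ± 0.23 (adjusted p = 0.0453, edgeR). ERG25, the C-4 methyl sterol oxidase gene, had 385, 419.8 and 646 CPM in Ind_B, against 1333, 974 and 1628 in control, and changed by −1.26 ± 0.22 without control13. In both genes Ind_B1 was lowest and Ind_B3 the highest of the Ind_B libraries, still below every control. ERG1, the squalene epoxidase, had 759, 1174 and 1098 CPM in Ind_B, against 2036, 1519 and 2629 in control, and was not called (adjusted p = 0.102, edgeR). ERG24, the C-14 reductase gene, was the least changed in this stretch at −0.32 ± 0.17, and at −0.11 ± 0.11 without control13.

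The last steps from zymosterol to ergosterol had the most negative median of the 3 stretches, with a value of −1.36 over 6 genes and −0.988 without control13. ERG5, the C-22 desaturase, had 225, 356 and 394 CPM in the Ind_B libraries, against 1146, 764 and 1639.5 in the controls. CYB5, the cytochrome b5 that passes electrons to sterol and lipid oxidases, had 48.7, 53 and 55.3 CPM in Ind_B, against 170.5, 101 and 201 in control. Both fell with all libraries, with the highest Ind_B library well under the lowest control. The C-24 methyltransferase gene ERG6 changed by −0.93 ± 0.15, the C-8 isomerase gene ERG2 by −0.80 ± 0.13 and the C-5 desaturase gene ERG3 by −1.05 ± 0.17 without control13, and all of these fell in that fit. ERG4, which encodes the final C-24(28) reductase, was the exception: it had 541, 604 and 488 CPM in Ind_B, against 494, 494 and 816 in control, so the groups overlapped and the change without control13 was 0.13 ± 0.12.

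**Figure D2:**
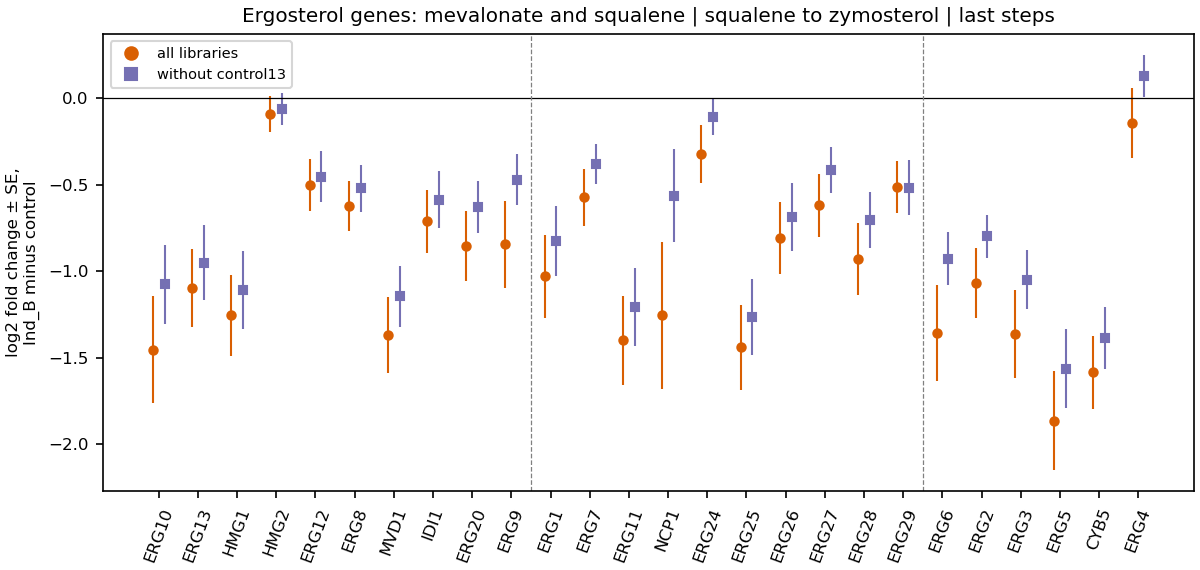
Log2 fold change ± SE of 26 ergosterol genes in pathway order, Ind_B minus control, with all libraries (circles) and without control13 (squares); dashed lines separate the 3 stretches of the pathway. Nearly all points lie below 0, HMG2 at the start and ERG4 at the end lie near it, and most squares lie above their circles.

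The regulators of these genes lay the other way without passing the test. UPC2 had 253, 274 and 215 CPM in the Ind_B libraries, against 142, 182 and 152 in the controls, and changed by 0.64 ± 0.14 (adjusted p = 0.091, edgeR). ECM22 had 52.1, 45 and 44.7 CPM in Ind_B, against 29.4, 36 and 36.7 in control (0.48 ± 0.13, adjusted p = 0.136, edgeR). In both, every Ind_B library was above every control library. In the list of 22 genes of sterol regulation, esters and transport, 10 were higher and 12 lower with a median of −0.062, and YEH1 was the 1 member called without control13. YEH1, a steryl ester hydrolase that frees stored sterol, had 149, 152 and 184 CPM in Ind_B, against 314, 243 and 441 in control, and fell by 0.80 ± 0.14 without control13 (adjusted p = 0.0348, edgeR). HES1, an oxysterol-binding protein gene, had 16.5, 23.6 and 19.8 CPM in Ind_B and 34.2, 27 and 31.1 in control, with no overlap and no call.

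Upc2 and Ecm22 bind a sterol response element written here as TCGTATA. It was searched on both strands of the RefSeq R64 windows from 250 bases before to 50 bases after each gene's annotated start. It was present in 4.15% of all 6001 windows, in 11.5% of those of the 26 ergosterol genes (ERG13, ERG8 and ERG2) and in 8.33% of those of the 36 genes called lower without control13 (CWP2, ERG2 and YEH1). The windows of the called sterol genes that hold it are shown from 250 to 51 bases before the start, on the plus strand, with the element in capitals; in YEH1 it lies on the opposite strand and reads TATACGA. These lie at chrXIII:667287-667486 for ERG2 and at chrXII:125284-125483 for YEH1.
ERG2: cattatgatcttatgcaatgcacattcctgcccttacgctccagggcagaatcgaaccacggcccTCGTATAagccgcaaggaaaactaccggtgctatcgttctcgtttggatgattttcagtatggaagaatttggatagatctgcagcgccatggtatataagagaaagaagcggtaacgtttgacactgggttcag
YEH1: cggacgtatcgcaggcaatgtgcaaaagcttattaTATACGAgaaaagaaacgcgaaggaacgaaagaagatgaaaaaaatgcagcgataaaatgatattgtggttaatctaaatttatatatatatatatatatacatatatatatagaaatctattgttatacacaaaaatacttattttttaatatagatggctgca
The match begins 185 bases before the start of ERG2 and 215 bases before that of YEH1. Matches are a description of these letters and not of binding.

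Fatty acid genes split by step. Genes of enzymes that build and desaturate the chain were lower. The elongase genes of the list, ELO1 and ELO3, differed little once control13 was left out. OLE1, the delta-9 desaturase that makes all unsaturated fatty acids of the cell, had 1166, 1008 and 837 CPM in the Ind_B libraries, against 3708, 2147 and 5979.8 in the controls. FAS1 and FAS2 encode the subunits of fatty acid synthase. FAS1 had 883, 904 and 894 CPM in Ind_B, against 2491, 1536 and 4079 in control, and FAS2 had 981, 686 and 981 CPM in Ind_B, against 2467, 1617 and 3779 in control. ACC1, the acetyl-CoA carboxylase that feeds the synthase, had 722, 647 and 776 CPM in Ind_B, against 1576, 1108 and 2772 in control. In each of these genes the Ind_B libraries were below all controls, and each fell without control13, by 1.55 ± 0.24 for OLE1, 1.18 ± 0.19 for FAS1, 1.22 ± 0.21 for FAS2 and 0.92 ± 0.16 for ACC1 (adjusted p of 0.0297, 0.0297, 0.0337 and 0.0355, edgeR).

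FAA4, an acyl-CoA synthetase that activates long-chain fatty acids taken up from outside, fell with all libraries and had 522, 347 and 522 CPM in Ind_B, against 1315, 1068 and 1636 in control. Its paralog FAA1 had 351, 361 and 365 CPM in Ind_B and 455, 375 and 729 in control, and was not called. MGA2, the membrane-bound activator of OLE1, had 167, 171 and 187 CPM in Ind_B and 327, 231 and 269.9 in control, without overlap, and was not called (−0.66 ± 0.16, adjusted p = 0.117, edgeR). SPT23, its partner, overlapped between the groups. Of the 9 genes of synthesis and elongation, 3 were called without control13 and the median was −0.272, or −0.020 without control13. ELO3 and ELO1, which lengthen the chains, changed by 0.03 ± 0.11 and 0.09 ± 0.15 without control13. Of the 26 phospholipid and inositol genes 17 were higher and 9 lower, and OPI3, which finishes the methylation of phosphatidylethanolamine to phosphatidylcholine, was the 1 called without control13. OPI3 had 46.8, 42.2 and 46.2 CPM in Ind_B, against 68.8, 73.4 and 167 in control, and changed by −0.66 ± 0.11 in that fit. Of 25 sphingolipid genes, 0 were called by edgeR in either fit, 5 had an unadjusted p under 0.05 with all libraries and 3 without control13, and DESeq2 called 0; their medians were −0.167 with all libraries and 0.024 without control13.

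IZH1 encodes a membrane protein of the progestin receptor family that responds to zinc and fatty acids. It had 59.6, 58.7 and 58 CPM in Ind_B, against 137, 87.6 and 117 in control, and fell by 0.94 ± 0.16 without control13 (adjusted p = 0.034, edgeR). The 3 Ind_B libraries were nearly equal and well under the lowest control.

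Cell wall protein genes were lower, by more with control13 than without it. PIR3, a wall protein held to glucan by its internal repeats, fell with all libraries and had 59.2, 35 and 89.4 CPM in the Ind_B libraries, against 397, 221 and 690.4 in the controls. Its relative PIR1 had 36.3, 30.1 and 46 CPM in Ind_B, against 86, 53 and 74.3 in control, without overlap and without a call (−0.92 ± 0.20, adjusted p = 0.0888, edgeR). HSP150 and CIS3, the other members of the family, were low in Ind_B2 above all: HSP150 had 723, 177 and 861 CPM in Ind_B, against 1184, 962 and 1608 in control, and CIS3 had 64.1, 21.2 and 45.2 CPM in Ind_B, against 77.9, 59.6 and 522 in control. The 4 PIR genes had medians of −0.723, −2.13 and −0.568 in Ind_B1, Ind_B2 and Ind_B3 and of 0.906 in control13, each relative to the mean log2 CPM of control1 and control12. The part of Ind_B2 and of control13 in this shift was not tested beyond the fits that leave them out.

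Of 15 mannoprotein genes, 13 were lower and the median was −1.31. Without control13 the median was −0.456 and CWP2 and TIP1 were called. CWP2, a major structural mannoprotein, had 67.7, 38 and 42.3 CPM in Ind_B, against 177, 108 and 977 in control. The control13 value was the highest by far, yet control1 and control12 also lay above every Ind_B library, and the change was −3.09 ± 0.71 with all libraries and −1.54 ± 0.26 without control13. TIP1, a cold-shock induced mannoprotein gene, had 63.2, 49 and 52.2 CPM in Ind_B, against 94.7, 89.4 and 144 in control, and changed by −0.76 ± 0.14 without control13. SED1 and CCW12, both abundant wall mannoproteins, and the TIP1 relative TIR1 showed the same order without being called. SED1 had 207, 222 and 333 CPM in Ind_B, against 709, 417 and 2954 in control. CCW12 had 234, 145 and 180.4 CPM in Ind_B, against 473, 308 and 1589 in control. NCW1, another wall protein gene, had 37.5, 27.9 and 31.4 CPM in Ind_B, against 61.5, 48 and 139 in control, and fell without control13 (−0.77 ± 0.14, adjusted p = 0.0453, edgeR). SPI1, a wall protein gene induced by weak acids, was not lower: it had 453, 353 and 269 CPM in Ind_B and 295, 301 and 198 in control.

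Among 16 glucan and chitin genes CRH1, a transglycosylase that links chitin to glucan, was called without control13. CRH1 had 79.4, 64.8 and 102 CPM in Ind_B, against 202, 141 and 679 in control, and changed by −1.07 ± 0.19 in that fit (adjusted p = 0.0396, edgeR). FKS1, the main glucan synthase subunit, had 4457, 3858 and 4017 CPM in Ind_B, against 5208, 4639 and 9530.4 in control, and its change without control13 was −0.27 ± 0.15. In the 17 genes of the cell wall integrity pathway, which runs from surface sensors through Pkc1 to the kinase Slt2, 8 were higher and 9 lower and the median was −0.122. PST1, a wall protein gene that this pathway induces, was the 1 called without control13. It had 208, 251 and 263 CPM in Ind_B, against 495, 380.4 and 498 in control, and changed by −0.87 ± 0.14 in that fit. SLT2 itself had 78.5, 71.6 and 90.6 CPM in Ind_B and 107, 83.7 and 70.6 in control, so its groups overlapped.

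Glycogen genes were lower at the synthase, the phosphorylase and the phosphoglucomutase. GSY2, the main glycogen synthase, had 136, 135 and 136 CPM in the Ind_B libraries, against 251, 219.8 and 455 in the controls. GPH1, the phosphorylase that breaks glycogen down, had 128, 178 and 179.7 CPM in Ind_B, against 345, 370.5 and 1042 in control. PGM2, the phosphoglucomutase between glucose-6-phosphate and glucose-1-phosphate, had 207, 218 and 222 CPM in Ind_B, against 417, 406 and 884 in control. All of these were below every control library and fell without control13, GSY2 by 0.80 ± 0.13, GPH1 by 1.15 ± 0.18 and PGM2 by 0.94 ± 0.16 (adjusted p of 0.0297, 0.0297 and 0.0348, edgeR). GSY1, the minor synthase, and PGM1, the minor mutase, changed by −0.09 ± 0.15 and −0.03 ± 0.12. The list of 14 had 11 lower and a median of −0.403 (−0.235 without control13). Of 7 trehalose genes, 0 were called by edgeR in either fit, 4 had an unadjusted p under 0.05 with all libraries and 1 without control13, and DESeq2 called 1. TPS1, the trehalose phosphate synthase, had 243, 203 and 216 CPM in Ind_B and 246, 265 and 487 in control.

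Oxidant defence was called lower at a few enzymes, and with all libraries more of its genes lay lower than higher. AHP1, a peroxiredoxin that reduces alkyl hydroperoxides, fell with all libraries and had 188, 154 and 197 CPM in Ind_B, against 341, 366 and 474 in control. CTT1, the cytosolic catalase, had 90.3, 99.6 and 117 CPM in Ind_B, against 304, 179 and 320.3 in control. YHB1, the flavohemoglobin that detoxifies nitric oxide, had 70.3, 110.1 and 125 CPM in Ind_B, against 283, 214 and 154 in control. In YHB1 control13 was the lowest control, unlike in most of the genes above, and Ind_B still lay under it. CTT1 and YHB1 fell without control13 (changes of −1.25 ± 0.23 and −1.30 ± 0.21, adjusted p of 0.042 and 0.0297, edgeR). The 22 genes of peroxiredoxins, thioredoxins and glutathione had a median of −0.085 (−0.052 without control13) with 6 higher and 16 lower. Of these, 6 lay lower without overlap, against 9.21% of all genes tested, and 1 higher, against 12.0%. TSA1 and PRX1 were lower without overlap and not called. They changed by −1.68 ± 0.49 and −0.73 ± 0.21 with all libraries, and by −0.66 ± 0.16 and −0.42 ± 0.10 without control13. SOD2, listed with CTT1, was also lower without overlap and not called (−1.07 ± 0.30, and −0.58 ± 0.15 without control13). GSH1, the first enzyme of glutathione synthesis, had 746, 499 and 557 CPM in Ind_B and 491, 489 and 416 in control, without overlap and not called. The general stress list, 25 genes of the kind that the activators Msn2 and Msn4 induce, had 12 members higher and 13 lower at a median of −0.074. Among them, 0 were called by edgeR in either fit, 5 had an unadjusted p under 0.05 with all libraries and 5 without control13, and DESeq2 called 2.

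Genes for the uptake of sulfur sources were higher with both sets of controls. All 10 transporters and enzymes of the list were higher, 8 of them without overlap between groups against 12.0% of all genes tested, and the median was 0.619 (0.536 without control13). JLP1, a dioxygenase that frees sulfite from sulfonates, rose with all libraries and had 43, 41.9 and 47.9 CPM in the Ind_B libraries, against 11.7, 19.2 and 10.6 in the controls. MMP1, the S-methylmethionine permease, also rose with all libraries, with 196, 194 and 172 CPM in Ind_B, against 94.7, 108 and 88.7 in control. YCT1, a cysteine transporter, had 303, 405 and 218 CPM in Ind_B, against 70.4, 123 and 55.6 in control. SUL1, a high-affinity sulfate permease, had 225, 191 and 209 CPM in Ind_B, against 91.7, 120.0 and 49.6 in control. YCT1 and SUL1 rose without control13, by 1.67 ± 0.31 and 0.97 ± 0.18 (adjusted p of 0.0447 and 0.042, edgeR), and the Ind_B libraries were above all 3 controls in each.

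The other sulfur transporters showed smaller differences that were not called. SUL2, the second sulfate permease, had 631, 452 and 544 CPM in Ind_B, against 383, 382 and 386 in control. MUP1, the high-affinity methionine permease, had 766, 581 and 517 CPM in Ind_B, against 417, 434 and 458 in control. SAM3, the S-adenosylmethionine permease, had 214, 227 and 226 CPM in Ind_B, against 127, 178 and 148 in control. In these genes too no Ind_B library was as low as a control. The 24 tested genes that reduce sulfate and make methionine inside the cell had a median of 0.124 (0.213 without control13), 16 higher and 8 lower. Among them, 0 were called by edgeR in either fit, 7 had an unadjusted p under 0.05 with all libraries and 9 without control13, and DESeq2 called 3. JLP1 averaged 15.7 ± 2.53 CPM and MMP1 147 ± 20.5 CPM in cultures with the other antifoam, Ind_Z (SD, n = 3), which were not compared with Ind_B here. The Cbf1 element CACGTG was in 0 of the 10 windows of the sulfur uptake list, against 2.92% of all windows.

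**Figure D3:**
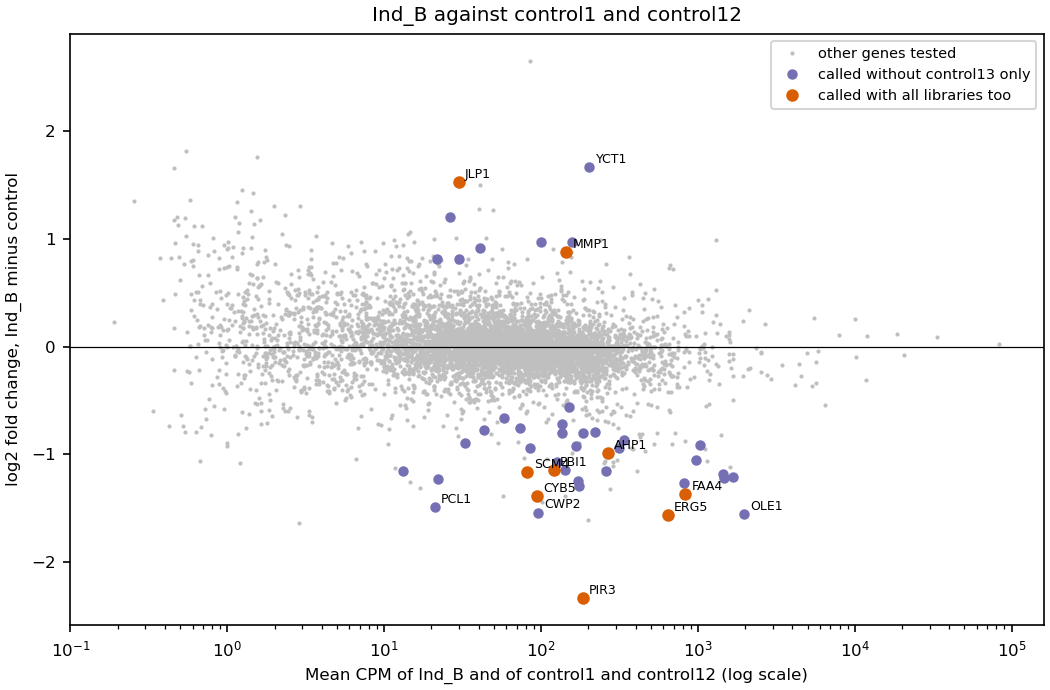
Log2 fold change of Ind_B over control1 and control12 against the mean CPM of both groups (log axis), 1 point per gene tested without control13. The 45 called genes are coloured, 36 below and 9 above 0, and those also called with all libraries are orange.

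Genes of mating rose at a few points. The mating pathway carries the pheromone signal through a kinase cascade to Ste12, which switches on fusion genes. FUS3, the mitogen-activated kinase of that cascade, had 29.2, 29.1 and 24.2 CPM in the Ind_B libraries, against 13.6, 17.6 and 14.9 in the controls. PRM1, a membrane protein of cell fusion, had 37.9, 38.8 and 32.4 CPM in Ind_B, against 11.4, 20.2 and 9.63 in control. Both were above all controls and rose without control13, FUS3 by 0.81 ± 0.15 and PRM1 by 1.20 ± 0.23 (adjusted p = 0.0453 and 0.0453, edgeR). FUS2, which also acts in fusion, had 22, 25 and 35.1 CPM in Ind_B, against 10.02, 17.8 and 5.42 in control, and was not called. STE12 itself had 46.5, 44.6 and 64.7 CPM in Ind_B and 68, 53.7 and 57.6 in control. Of the 19 tested genes of mating and haploid-specific functions, 16 were higher, with a median of 0.381 (0.223 without control13). Relative to control1 and control12 their medians were −0.006, 0.169 and 0.234 in Ind_B1, Ind_B2 and Ind_B3, against −0.145, 0.145 and −0.523 in control1, control12 and control13. Ind_B1 thus lay below control12 over the list, 0 of the 19 genes were called by edgeR with all libraries (6 at an unadjusted p under 0.05, and 5 called by DESeq2), and the part of control13 in the list's median was not tested further.

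HOP1, a component of the axis of meiotic chromosomes, had 32.2, 43.8 and 38.5 CPM in Ind_B, against 19.2, 24.2 and 19.7 in control, and rose without control13 by 0.81 ± 0.15 (adjusted p = 0.0453, edgeR). Ind_B2 was highest and every Ind_B library was above every control. Of 20 early meiosis genes tested with all libraries, 16 were higher and the median was 0.382. Of these 20, 0 were called by edgeR, 7 had an unadjusted p under 0.05, and DESeq2 called 3. Without control13, 21 were tested, the median was 0.188 and HOP1 was the 1 called. Relative to control1 and control12 the list's medians were 0.12, 0.302 and 0.221 in Ind_B1, Ind_B2 and Ind_B3. They were −0.071, 0.071 and −0.556 in control1, control12 and control13. Ind_B1 thus lay close to control12 over the list, and the part of control13 in the list's median was not tested further. MER1, a meiotic splicing factor gene, had 26.7, 23.3 and 17.8 CPM in Ind_B, against 14.3, 14.2 and 12.4 in control, and was not called. IME1, the master regulator of meiosis, was below the filter on low counts, and IME2, the kinase it activates, had 7.51, 8.53 and 9.91 CPM in Ind_B and 9.55, 8.84 and 6.02 in control. The 13 tested genes of middle sporulation had a median of 0.373 (0.349 without control13), and 0 were called by edgeR in either fit, 5 had an unadjusted p under 0.05 with all libraries and 3 without control13, and DESeq2 called 2. The most shifted gene with p under 0.05 in edgeR's test was SPO21, a spindle pole body protein of spore formation, at 21, 29.9 and 28.2 CPM in Ind_B and 12, 17.5 and 9.63 in control.

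The elements of Ste12 (TGAAACA) and of the meiotic repressor Ume6 (GCCGCC) were common in these lists whether or not a member was called. TGAAACA was in 52.2% of the mating windows, against 7.50% of all windows, and GCCGCC was in 68.2% of the early meiosis windows, against 5.13%. The windows of the 3 called genes are shown because each holds the element of its list, over the same bases as before, all on the plus strand of R64, at chrII:192201-192400 for FUS3, chrXIV:110667-110866 for PRM1 and chrIX:226352-226551 for HOP1. Capitals mark the element, which in PRM1 and HOP1 lies on the opposite strand and reads TGTTTCA and GGCGGC.
FUS3: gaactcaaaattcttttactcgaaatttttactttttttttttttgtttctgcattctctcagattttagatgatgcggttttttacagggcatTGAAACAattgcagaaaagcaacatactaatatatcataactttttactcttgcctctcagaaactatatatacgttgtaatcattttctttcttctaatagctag
PRM1: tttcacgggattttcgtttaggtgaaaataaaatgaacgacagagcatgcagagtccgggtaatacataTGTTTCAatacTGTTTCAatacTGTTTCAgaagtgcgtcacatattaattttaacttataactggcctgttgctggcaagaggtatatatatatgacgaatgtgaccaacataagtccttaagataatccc
HOP1: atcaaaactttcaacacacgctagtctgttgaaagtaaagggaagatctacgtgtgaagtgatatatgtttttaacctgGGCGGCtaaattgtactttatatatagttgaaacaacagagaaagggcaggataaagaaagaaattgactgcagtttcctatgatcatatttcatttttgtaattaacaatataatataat
PRM1 holds 3 copies, beginning 181, 170 and 159 bases before the start, FUS3 holds 1 beginning 156 bases before it and HOP1 holds 1 beginning 171 bases before it.

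Iron uptake genes were higher in small steps, none of them called. Of 25 genes tested 21 were higher and 14 of these had no overlap between groups, against 12.0% of all genes tested, with a median of 0.368 (0.230 without control13). Among them, 0 were called by edgeR in either fit, 14 had an unadjusted p under 0.05 with all libraries and 9 without control13, and DESeq2 called 4. SIT1, a transporter of ferrioxamine, had 22.4, 26.7 and 25.8 CPM in Ind_B, against 12, 16.8 and 11.4 in control (0.88 ± 0.18, adjusted p = 0.072, edgeR). ARN1, a transporter of ferrichrome, had 87.1, 78.5 and 78.4 CPM in Ind_B, against 52.9, 62 and 38.7 in control. FET3, the multicopper oxidase of high-affinity uptake, had 82.1, 79.5 and 78.3 CPM in Ind_B and 64.7, 74.2 and 59.4 in control, and the regulator gene AFT1 had 48.3, 48.5 and 68.9 CPM in Ind_B and 62.6, 54.8 and 58 in control. SIT1, ARN1 and FET3 were above every control in all Ind_B libraries, while AFT1 overlapped. In control13 the list's median was −0.402 relative to control1 and control12, and its part in the difference was not tested further. The Aft1 element TGCACCC was in 46.2% of the windows of the list, against 1.30% of all windows.

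Hexose transporters differed one by one. HXT2, a transporter made at low glucose, had 173, 102 and 167 CPM in the Ind_B libraries, against 19, 27.9 and 19.3 in the controls. That difference, 2.73 ± 0.46, was the largest higher one under the rule used to name genes, and it missed the threshold in both fits (adjusted p = 0.0558 with all libraries and 0.059 without control13, edgeR). HXT1, a low-affinity transporter made at high glucose, had 102, 51 and 55.8 CPM in Ind_B, against 25.9, 32 and 20.5 in control. HXT4 was lower, with 139, 239 and 391 CPM in Ind_B, against 466, 513 and 1280.3 in control. HXT3, with 2556, 2870.3 and 3166 CPM in Ind_B and 2241, 2684 and 3059 in control, overlapped. STD1, a regulator of glucose sensing, had 41.5, 39.3 and 47.7 CPM in Ind_B, against 23.7, 31.1 and 22.3 in control (0.73 ± 0.15, adjusted p = 0.072, edgeR). Of the 20 hexose transporter and sensor genes 16 were higher at a median of 0.368, and 0 were called by edgeR in either fit, 10 had an unadjusted p under 0.05 with all libraries and 7 without control13, and DESeq2 called 4.

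Over the cytosolic chaperone list, control12 lay above all 3 Ind_B libraries, and over the protein sequestration list it lay below them. Relative to control1 and control12, the medians of the 24 cytosolic chaperone genes were 0.153, 0.206 and 0.136 in Ind_B1, Ind_B2 and Ind_B3, against −0.220, 0.220 and −0.096 in control1, control12 and control13. BTN2, which gathers misfolded proteins into deposits, had 331, 334 and 289 CPM in Ind_B, against 93.8, 225 and 141 in control. Its paralog CUR1 had 80.1, 78.2 and 75.3 CPM in Ind_B, against 32.1, 58.1 and 28.7 in control. SSA4, an inducible Hsp70, had 418, 550.4 and 429 CPM in Ind_B, against 167, 355 and 226 in control. In these genes the groups did not overlap, but control12 was the highest control, and none was called (adjusted p of 0.117, 0.104 and 0.139, edgeR). The median change of the chaperone list was 0.188, with 16 higher and 8 lower. Of its genes, 0 were called by edgeR in either fit, 5 had an unadjusted p under 0.05 with all libraries and 4 without control13, and DESeq2 called 2. BTN2 and CUR1 are in the protein sequestration list, where 3 of 3 genes were higher (median 0.963, and 0.788 without control13). Relative to control1 and control12 its medians were 0.884, 0.849 and 0.794 in Ind_B1, Ind_B2 and Ind_B3. They were −0.424, 0.424 and −0.037 in control1, control12 and control13. In this list 0 genes were called by edgeR in either fit, and DESeq2 called 2.

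Genes of growth and division were among the largest negative changes under the rule used to name genes, and with control13 they were much larger in size than without it. PCL1 and CLN1 are cyclins of the G1 phase that drive entry into the cell cycle. PCL1 had 9.30, 10.1 and 13.5 CPM in Ind_B, against 35.9, 25.9 and 441 in control, and CLN1 had 12.3, 11.9 and 15.2 CPM in Ind_B, against 37.1, 24.2 and 329 in control. In both, control13 was many times the other controls, which were still above every Ind_B library. Without control13 both fell, PCL1 by 1.49 ± 0.19 and CLN1 by 1.23 ± 0.21 (adjusted p of 0.0297 and 0.0348, edgeR), against changes of −3.90 ± 0.95 and −3.27 ± 0.84 with it. YOX1, a homeobox repressor of the cell cycle, had 19.8, 23.8 and 25.4 CPM in Ind_B, against 45.9, 39.3 and 497 in control, and fell by 0.90 ± 0.15 without control13. SIM1, a wall protein gene of the SUN family, had 6.89, 6.15 and 6.86 CPM in Ind_B, against 10.02, 9.82 and 401 in control, so its change of −4.36 ± 1.29 became −0.58 ± 0.23 without control13. MCD1, a cohesin subunit gene, and RNR1, the large subunit of ribonucleotide reductase, behaved in the same way, with changes of −2.90 ± 0.89 and −2.58 ± 0.78 that became −0.53 ± 0.14 and −0.59 ± 0.15.

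Over whole lists of this kind the median moved toward 0 without control13, and some lists stayed mostly lower. It was −0.608 with all libraries and −0.204 without control13 for 135 cytosolic ribosomal protein genes, −0.430 and −0.053 for 17 glycolysis genes, −0.563 and −0.004 for 10 histone genes, and −0.749 and −0.192 for 19 purine and one-carbon genes. Of the ribosomal protein genes, 0 were called by edgeR in either fit, 72 had an unadjusted p under 0.05 with all libraries and 14 without control13, and DESeq2 called 3. Of the glycolysis genes, 0 were called by edgeR in either fit (3 and 2 at an unadjusted p under 0.05, and 1 called by DESeq2), of the histone genes, 0 were called by edgeR in either fit (3 and 0 at an unadjusted p under 0.05, and 0 called by DESeq2), and of the purine and one-carbon genes, 0 were called by edgeR in either fit (11 and 5 at an unadjusted p under 0.05, and 0 called by DESeq2). In control13 the medians of these lists were 0.988, 1.13, 1.10 and 0.972 above the mean of control1 and control12. Without control13, 125 of the 135 ribosomal protein genes were still lower, against 3140 of 6178 genes tested. Relative to control1 and control12 their medians were −0.020, −0.253 and −0.315 in Ind_B1, Ind_B2 and Ind_B3. In control1 and control12 they were 0.013 and −0.013, so Ind_B1 lay close to these controls. With all libraries 45 of the 135 were lower without overlap, against 9.21% of all genes tested. The 17 genes of G1 cyclins and start had medians of −0.63 with all libraries and −0.259 without control13. Of these 17, 16 were lower without control13 and 2 were called lower, against 0.583% of all genes tested. Relative to control1 and control12 the medians of these 17 genes were −0.292, −0.433 and −0.068 in Ind_B1, Ind_B2 and Ind_B3. They were 0.055, −0.055 and 1.26 in control1, control12 and control13, so Ind_B3 lay close to control12.

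**Figure D4:**
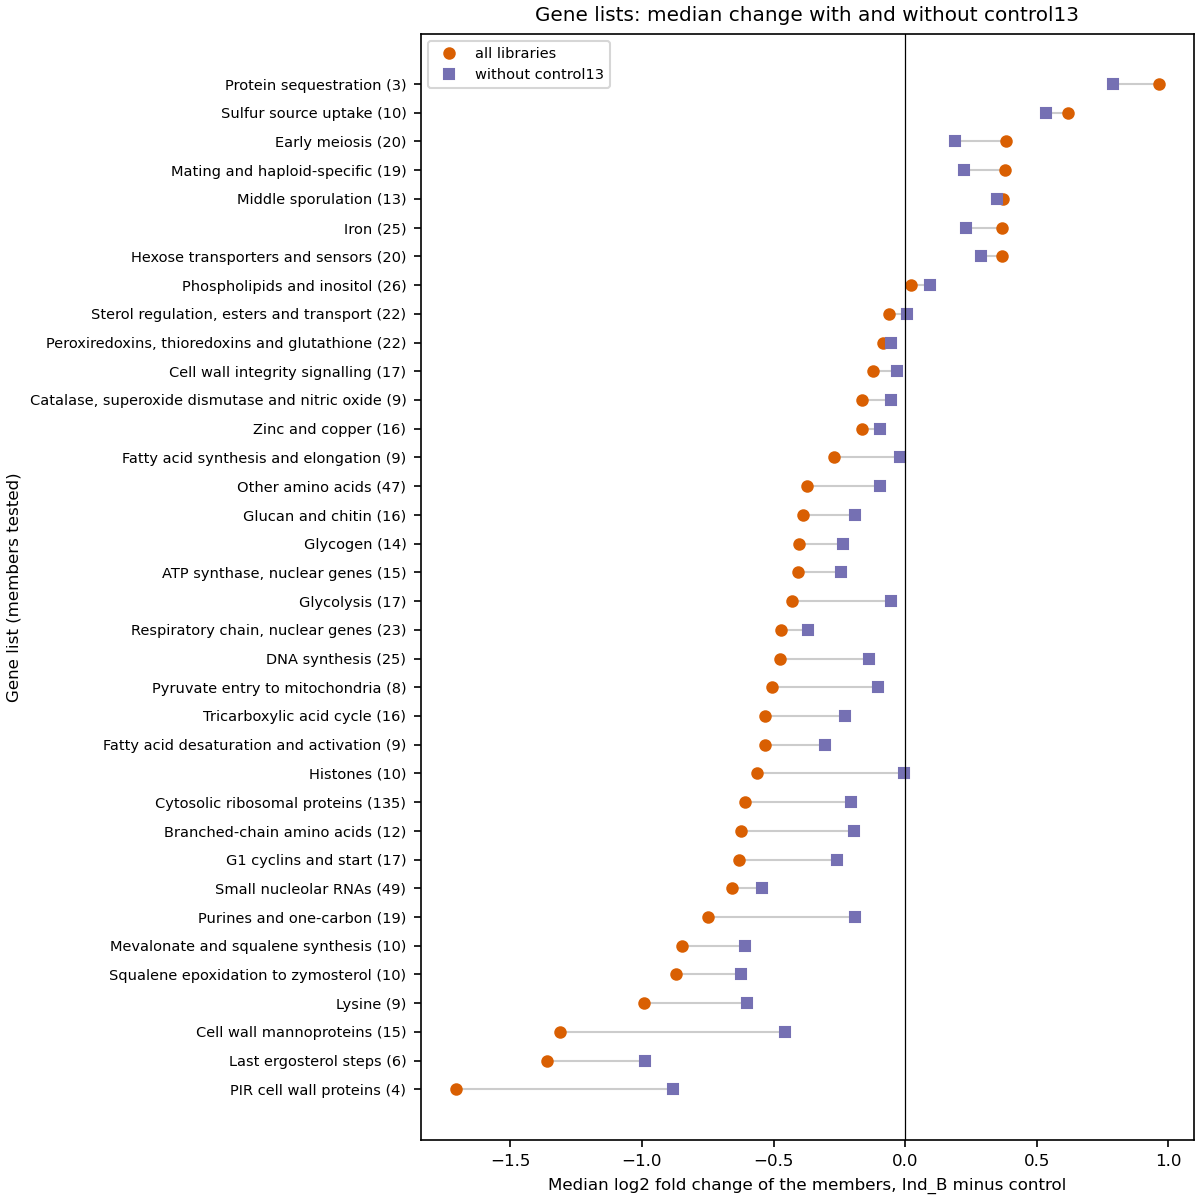
Median log2 fold change, Ind_B minus control, of the gene lists with a called member or a median of at least 0.35 in size, with all libraries (circles) and without control13 (squares); the number of members tested stands in parentheses. Ergosterol lists stay low and sulfur uptake stays high with both, whereas glycolysis and histones move close to 0 without control13.

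Among mitochondrial lists the shift without control13 varied. For 16 genes of the tricarboxylic acid cycle the median was −0.532, and −0.230 without control13. For 8 genes of pyruvate entry into mitochondria it was −0.506, and −0.104 without control13. Among the 23 nuclear respiratory chain genes the median was −0.470, and −0.369 without control13, with 22 lower and 10 of the lower ones without overlap, against 9.21% of all genes tested. Relative to control1 and control12 the respiratory medians were −0.441, −0.171 and −0.515 in Ind_B1, Ind_B2 and Ind_B3, against 0.200, −0.200 and 0.371 in control1, control12 and control13, so that Ind_B2 was not below control12. The 15 nuclear genes of the ATP synthase had a median of −0.408, and −0.243 without control13, with 15 lower. Of the respiratory chain genes, 0 were called by edgeR in either fit, 14 had an unadjusted p under 0.05 with all libraries and 12 without control13, and DESeq2 called 8. Of the ATP synthase genes, 0 were called by edgeR in either fit (8 and 5 at an unadjusted p under 0.05, and 2 called by DESeq2). QCR2, a core subunit of complex III, had 124, 104 and 139.8 CPM in Ind_B, against 194, 161 and 235 in control. ATP2, the beta subunit of the ATP synthase, had 289, 266 and 365 CPM in Ind_B, against 482, 439 and 801 in control. NDI1, the internal NADH dehydrogenase, had 31.3, 36 and 33.6 CPM in Ind_B, against 60.5, 45.7 and 105 in control. All of these had every Ind_B library below every control. POR1, the porin of the mitochondrial outer membrane, had 128, 117 and 123 CPM in Ind_B, against 189.5, 169.8 and 585 in control, and fell without control13 by 0.56 ± 0.10 (adjusted p = 0.0337, edgeR). The element of the respiratory activator complex Hap2/3/4/5 (CCAAT) was in 73.9% of the respiratory chain windows, against 43.3% of all windows.

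In lysine synthesis and in the small nucleolar RNAs the 3 Ind_B libraries did not move together. LYS9, which acts near the end of the lysine pathway, had 57.5, 138 and 274 CPM in Ind_B1, Ind_B2 and Ind_B3, against 301, 384 and 874 in control. LYS1, its last enzyme, had 60.5, 82.4 and 174 CPM in Ind_B, against 211, 209 and 454 in control. In both, Ind_B3 was close to control1 and control12 and Ind_B1 far below. The 9 lysine genes had medians of −0.995, −0.835 and −0.080 in Ind_B1, Ind_B2 and Ind_B3 and of 0.999 in control13, each relative to control1 and control12. The 49 small nucleolar RNAs tested had medians of −1.03, 0.124 and −1.17 in Ind_B1, Ind_B2 and Ind_B3 and of 0.445 in control13. SNR190, 1 of these RNAs, had 624, 1715 and 699 CPM in Ind_B, against 2601, 1760.2 and 5095 in control. Of the lysine genes, 0 were called by edgeR in either fit (7 and 6 at an unadjusted p under 0.05, and 4 called by DESeq2), and of the small nucleolar RNAs, 0 were called by edgeR in either fit (21 and 13 at an unadjusted p under 0.05, and 7 called by DESeq2).

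Some called genes lay outside every list. SCM4 and PBI1 fell with all libraries: SCM4 had 43.1, 46.4 and 62.2 CPM in Ind_B, against 131, 95.4 and 163 in control, and PBI1 had 62.8, 81.4 and 82.4 CPM in Ind_B, against 188, 143 and 205 in control. SMF1, a manganese transporter of the plasma membrane, and MTC7 fell without control13. SMF1 had 101, 98.5 and 108 CPM in Ind_B, against 182, 153 and 351 in control, and MTC7 had 8.06, 7.84 and 8.64 CPM in Ind_B, against 22.6, 13.5 and 33.3 in control. VBA2, a permease for basic amino acids at the vacuole, and LAF1 rose without control13. VBA2 had 52.5, 62.4 and 44.9 CPM in Ind_B, against 27.1, 28.8 and 16.1 in control, and LAF1 had 171, 119.8 and 109 CPM in Ind_B, against 63.8, 71.5 and 75.1 in control. The Ind_B and control libraries did not overlap in any of these genes.

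**Figure D5:**
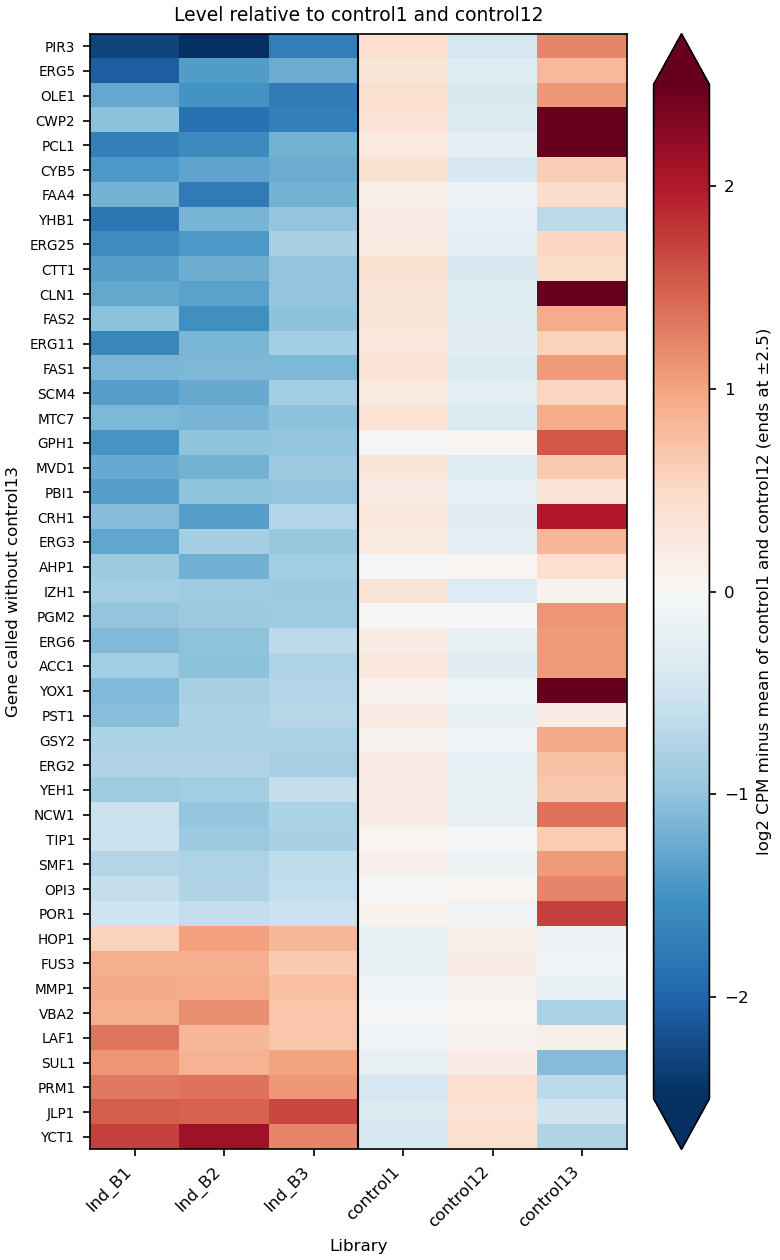
Log2 CPM of the 45 genes called without control13, relative to the mean of control1 and control12, in the 3 Ind_B libraries and the 3 control libraries; genes are ordered by their change and the colour scale ends at ±2.5. The Ind_B columns are blue for 36 genes and red for 9, and control13 is darkest red for CWP2, PCL1, CLN1 and YOX1.

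The remaining genes named by the size of their change were not called by edgeR. SPS100, a spore wall gene, had 91.3, 56.6 and 32.8 CPM in Ind_B, against 21.4, 20.9 and 11.2 in control, but it has a near-identical copy in R64 and overlaps a gene on the opposite strand, so its count is uncertain. ROQ1, a regulator of protein degradation under stress, had 22.6, 21.2 and 17.7 CPM in Ind_B, against 7.18, 13.9 and 5.02 in control. NIS1, a bud neck protein, had 65.5, 62.1 and 42.1 CPM in Ind_B, against 14.6, 32.4 and 28.7 in control. YLR154W-F had 1.79, 2.18 and 0.52 CPM in Ind_B, against 4.08, 4.31 and 40.9 in control. None of these 4 genes was called by edgeR with all libraries or without control13. With all libraries DESeq2 called SPS100, ROQ1 and NIS1 (adjusted p of 0.00018, 0.0082 and 0.0069, DESeq2) and gave YLR154W-F no p-value. The groups did not overlap in these genes, which the rule used to name them required.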

How the data were processed

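RNA was sequenced from 9 yeast libraries in groups of 3 (Ind_B, Ind_Z and control). Per the labels' protocols, a TRIzol kit was used for total RNA and a TruSeq kit for the libraries, with ribosomal RNA depleted by enzyme. What the authors deposited was 1 table of unnormalised read counts for 6357 genes and other features. The programs that appear in the submitters' processing notes are HTSeq 0.6.0 and TopHat2 2.0.9, with no roles. The strand setting, annotation and genome build are each not stated in the sources used here, and a gene overlapped by another on the opposite strand is uncertain. Columns were matched to samples by name, and control12 and control13, which match no single title, were used as control libraries without a replicate number.

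Library totals ranged from 5900571 to 18245935 counts. Counts were tested in R 4.3.3 with edgeR 4.0.16: genes passing filterByExpr, TMM scaling, 1 mean per group over all 9 libraries (6 residual degrees of freedom), and the quasi-likelihood F-test of Ind_B minus control with Benjamini-Hochberg adjustment over all genes tested at 0.05. The fit without control13 kept 8 libraries and 5 residual degrees of freedom. Standard errors come from the F statistic. Every adjusted p in the text is from these fits unless DESeq2 is named. The alternatives were DESeq2 1.42.0, RLE scaling, no filter, a mean count of at least 50, a fit on the 6 libraries of both groups, and leaving out each of these libraries. The script was tested on simulated counts with known changes, 50 genes at each fold. It called 30% of those changed 1.5-fold, 80% at 2-fold and 100% at 4-fold and 8-fold. It also called 11 unchanged genes among 6123 genes tested. No simulated library was made to stand apart as control13 does, so these shares may not hold for the data.

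The genes, the 71 gene lists and the tests were chosen with earlier results of these data known. A list is described by its counts and its median, without a test. Genes named were those called with all libraries or without control13, the 10 largest changes each way among genes with unadjusted p under 0.05, a mean count of at least 50 and groups that did not overlap, and from each list up to 3 members of lowest p. Other members named beside them were chosen after their values were seen. Per-library list medians use log2(CPM + 0.5). Of the listed symbols, 18 matched no row. Rows were matched to RefSeq R64 by locus tag (5783) or symbol (65), and 509 stayed unmatched. R64 served for names, for near-identical copies (BLAST+ 2.17.0, a minimum of 95% identity across 50% or more of a gene) and for the sequence windows and their positions, and may differ from the build the authors used.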

Additional observations from a re-analysis of the deposited data

How the results depend on the processing

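The number of called genes depended on the libraries and on the tool, and the cause was not tested. With each of the 6 libraries left out in turn it ranged from 0 to 332, with 0 to 173 higher and 0 to 159 lower in Ind_B. A fit on the 6 libraries of Ind_B and control alone called 1 gene, 1 higher and 0 lower (746 at an unadjusted p under 0.05). DESeq2 called 301 genes, 143 higher and 158 lower. RLE scaling called 8, and both no filter and a mean count of at least 50 called 9. For 56 named genes under 11 alternatives, 616 values in all, 0 changed direction: 447 stayed on their side of the threshold, 123 newly passed it and 46 no longer passed it. A gene without a DESeq2 p-value was counted there as not passing. Of 781 list medians under these alternatives, 653 moved by less than the SD of the list's median over the 3 Ind_B libraries. The other 128 moved by at least that much. Control libraries do not enter that SD, so a list that scattered within Ind_B had a wider margin. No paired analysis was possible because the columns control12 and control13 carry no replicate number, so Ind_B and control share fewer than 2 numbers. With 3 libraries a group, 1 of them standing apart, a gene that was not called is not shown to be unchanged. control13 had the smallest total of the 6 libraries, 6585639 counts.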

Other observations

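Transport of amino acids and ammonium was mixed. TAT1, a permease for tyrosine, tryptophan and branched-chain amino acids, had 171, 165 and 151 CPM in Ind_B, against 103, 128 and 86.7 in control, with no overlap; it has a near-identical copy in R64 and overlaps a gene on the opposite strand, so its count is uncertain. BAP2, a branched-chain amino acid permease, had 619, 549.8 and 593 CPM in Ind_B, against 366, 494 and 415 in control. The ammonium permease genes lay the other way, with MEP3 at 181, 187 and 155 CPM in Ind_B, against 261, 219.7 and 291 in control, and MEP2 at 183, 136 and 153 CPM in Ind_B, against 193, 239.7 and 208 in control. Of the 20 permease genes 8 were higher and 12 lower, and 0 were called by edgeR in either fit, 7 had an unadjusted p under 0.05 with all libraries and 4 without control13, and DESeq2 called 3.

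Lists of the wider cell had medians near 0, though some lay mostly in 1 direction. Of 34 proteasome genes 24 were lower with all libraries, 6 of them without overlap, against 9.21% of all genes tested. Without control13, 30 of the 34 were lower, against 3140 of 6178 genes tested. Of 17 vacuolar ATPase genes 16 were lower with all libraries and 8 without control13. The median change was 0.147 for 37 autophagy genes (0.058 without control13), −0.083 for 34 proteasome genes (−0.101 without control13), −0.135 for 17 vacuolar ATPase genes (0.037 without control13) and −0.071 for 14 genes of folding in the endoplasmic reticulum (0.040 without control13). Of the autophagy genes, 0 were called by edgeR in either fit (3 and 5 at an unadjusted p under 0.05, and 0 called by DESeq2), and of the proteasome genes, 0 were called by edgeR in either fit (4 and 3 at an unadjusted p under 0.05, and 0 called by DESeq2). QDR1, a drug exporter gene, had 35.3, 38.2 and 36.6 CPM in Ind_B, against 22.3, 29.2 and 16.9 in control, without overlap and without a call (0.67 ± 0.17, adjusted p = 0.12, edgeR). FLO5, a flocculin gene, had 87.7, 82.3 and 94.3 CPM in Ind_B, against 61.1, 75.9 and 62.4 in control, and likewise was not called.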
